A study of Apis mellifera with 12 samples.

Results

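The antennae of honey bee (Apis mellifera) defenders were compared with those of foragers. The 3 defender and 3 forager libraries were taken by their titles and make up 6 of the 12 RNA-seq libraries of the series; the others are 3 of newly emerged workers and 3 of nurses. All are workers and all libraries hold antennal RNA. The labels give no genotype, strain, treatment, age, colony or number of bees for any group, and do not say what the defenders had done before they were sampled. Task and age therefore cannot be told apart. The titles number the libraries of each group 1 to 3 after the group's name. They also carry a second replicate number, which is the same except in forager library 1 and nurse library 1, where it reads 2. The first number is used throughout, and nothing says whether these came from separate colonies, so the p-values measure only the spread between these libraries.

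Foragers are workers that collect nectar and pollen outside the hive, and defenders are workers that guard the nest or attack intruders. Both lean on the antenna, the main organ of smell. Odorants enter pores of antennal sensilla, are carried through the lymph by soluble odorant binding and chemosensory proteins, and open channels made of an odorant receptor and the shared co-receptor Or2. In the defence of a nest the antenna reads alarm pheromone and the odour of intruders, and in foraging it reads floral scent.

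The tissue label was checked first. The abundant antennal carriers Obp1 and Obp2 stood at 15028 to 23805 CPM (counts scaled to a common library size with TMM factors) in the forager libraries and at 14088 to 18482 CPM in the defender libraries, while Melt, the venom peptide melittin of the sting apparatus, stood at 0.161 to 0.44 CPM over both groups. The 6 libraries held 78207779 to 119703929 counts. Forager library 2 stood apart from the others on the first principal component (-33.1, against -10.8 to 18.9; 36.6% of the variance) and carried ribosomal RNA genes at 266 CPM without TMM factors, against 37.5 and 48.1 in the other foragers and 13.3 to 19.7 in the defenders. Log2 CPM correlated across genes at 0.993 to 0.995 between defenders, at 0.986 to 0.992 between foragers and at 0.984 to 0.992 between the groups. Genes are not independent replicates in these correlations. In bulk RNA, fewer cells of a type and less RNA per cell cannot be told apart.

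No gene passed a Benjamini-Hochberg (BH) adjusted p of 0.05 in edgeR's quasi-likelihood test over all 12 libraries and 11271 genes (0% called), and the smallest adjusted p was 0.0544, shared by 185 genes. At an unadjusted p under 0.05 stood 2705 genes (24.0%), of which 1530 (13.6%) were higher in defenders and 1175 (10.4%) lower. At an adjusted p under 0.10 stood 769 higher (6.82%) and 369 lower (3.27%) genes. In 1939 genes (17.2%) all defender libraries were above all forager libraries, and in 1666 (14.8%) below. Libraries with the same number deviated together from their group means, with correlations of 0.423, 0.222 and 0.265 for numbers 1, 2 and 3. These correlations cover defenders against foragers only. With that number as a term for all 12 libraries, nurses and newly emerged workers included, 667 genes passed (5.92%). This is here called the paired fit. Of the 667 genes, 542 (4.81%) were higher in defenders and 125 (1.11%) lower. The count of the paired fit was 0 without defender library 3, 0 without forager library 1 and 1 without forager library 2, and 325, 90 and 168 without defender libraries 1 and 2 and forager library 3. With upper-quartile factors, which shifted the median of all genes by -0.10 (log2), the unadjusted counts were 952 higher and 2319 lower, and the paired fit called 342 higher and 381 lower. DESeq2, without the number, called 1306 genes (806 higher, 7.15%, and 500 lower, 4.44%), among them 635 of the 667. The 6 libraries fitted alone in edgeR, also without it, gave 876 (711 higher, 6.36%, and 165 lower, 1.48%), among them 571 of the 667. The words "rose" and "fell" below are used of genes that passed in the paired fit. Of 21 named genes followed in the paired fit as single libraries were left out, none kept the call without defender library 3, forager library 1 or forager library 2, where their smallest adjusted p were 0.146, 0.101 and 0.0888.

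**Figure D1:**
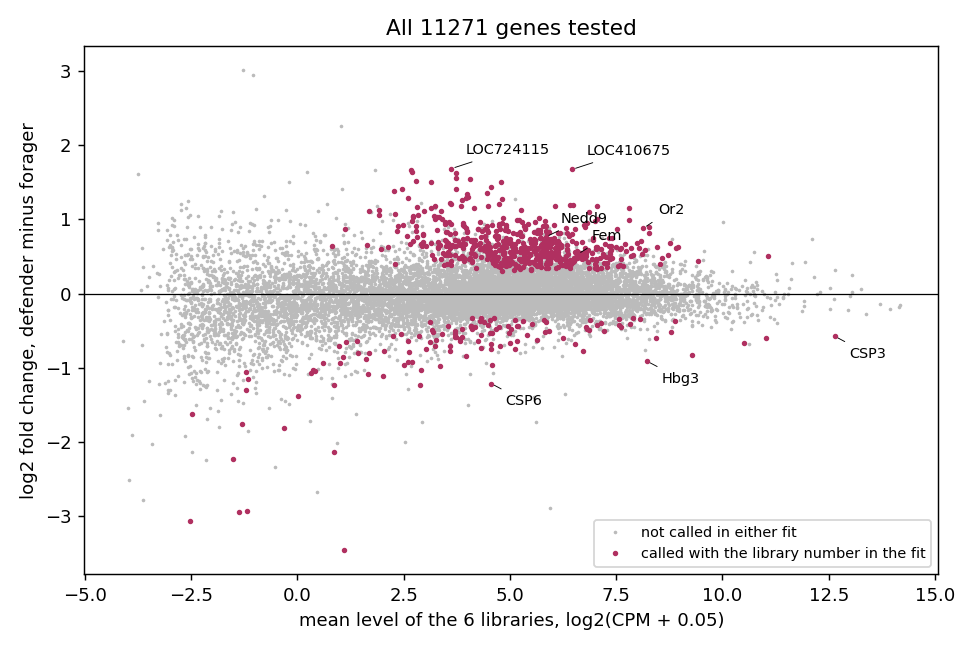
Each point is 1 of the 11271 genes tested, with its mean level over the 6 libraries on the x axis, as log2(CPM + 0.05), and its log2 fold change, defender minus forager, on the y axis. The 667 coloured genes passed in the paired fit, and none of the genes passed in the same 12-library fit without the library number; most lie above 0 (542 against 125).

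The odorant co-receptor Or2, without which odorant receptors do not reach the dendrite in insects studied, was among the genes that rose. Or2 stood at 198, 246 and 152 CPM in forager libraries 1 to 3 and at 325, 385 and 388 CPM in the defenders. The groups did not overlap. Its log2 fold change was 0.88 ± 0.25 (SE), with an adjusted p of 0.0737 in edgeR and 0.0431 in the paired fit. Or2 kept its call in the paired fit in 1 of the 6 fits that left out a library, with adjusted p from 0.0478 to 0.232.

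The ligand-specific receptors that could be matched did not follow Or2 as a group. Receptor genes with only a LOC identifier could be matched only through a synonym, so others may be missing. Of 35 odorant receptor genes matched by name or synonym and tested, Or2 included, 2 were higher at an unadjusted p under 0.05 (13.6% of all genes) and 2 lower (10.4%), and 23 had a log2 fold change below 0 (28 with upper-quartile factors). Their median was -0.12, against -0.02 over all genes, of which 5949 of 11271 were below 0. With upper-quartile factors the median of all genes was itself -0.12. Of the 35, 12 are in the shortest of 5 length classes of protein-coding genes, whose median was -0.15. The part of length in the median of the receptors was not tested. The genes besides Or2 that follow were chosen, as elsewhere where no rule is given, after their values were seen. Or12 stood at 113, 129 and 109 CPM in foragers and at 97.7, 99.6 and 104 CPM in defenders, without overlap, and its adjusted p in edgeR was 0.156. Or98 stood the other way, at 8.79, 8.15 and 8.96 CPM in foragers and 10.6, 10.1 and 9.6 CPM in defenders (adjusted p 0.174 in edgeR). Or9, at 6.61, 7.29 and 6.5 CPM against 5.58, 5.56 and 5.47 CPM, was lower in every defender library (adjusted p 0.202 in edgeR). Or11, a receptor known from drones for queen substance, stood at 45.8, 54.0 and 42.1 CPM in foragers and at 41.4, 41.0 and 39.3 CPM in defenders. These values do not overlap, but the difference of -0.22 ± 0.10 (SE) had an adjusted p of 0.209 in edgeR. The receptors share sequence, and the sources used here do not say how reads matching several of them were counted.

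Gr10 was the 1 gustatory receptor gene matched and tested. It stood at 2.45, 2.47 and 2.98 CPM in foragers and at 3.3, 3.7 and 4.68 CPM in defenders. All defender libraries were higher, by 0.57 ± 0.16 (SE, log2), with an adjusted p of 0.0767 in edgeR and 0.0615 in the paired fit.

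Odorant binding proteins, the soluble carriers, gave no gene that rose or fell. Of 19 genes, none was higher and 2 were lower at an unadjusted p under 0.05, where 13.6% and 10.4% of all genes were, and none passed in the paired fit. There were 14 with a log2 fold change below 0, with a median of -0.15, where 5949 of all 11271 genes were below 0. With upper-quartile factors, which moved the median of all genes to -0.12, there were 16. Of the 19, 10 are in the shortest of 5 length classes of protein-coding genes, whose median was also -0.15. Obp16 stood at 2493, 2989 and 2992 CPM in foragers and at 2105, 2048 and 2278 CPM in defenders, a difference of -0.40 ± 0.13 (SE, log2) with an adjusted p of 0.10 in edgeR and 0.0665 in the paired fit. Obp5 stood at 1796, 2043 and 1595 CPM against 1354, 1472 and 1663 CPM, and overlapped. The 2 most abundant carriers, Obp1 and Obp2, did not separate the groups. Obp1 stood at 17375, 23805 and 17086 CPM in foragers and at 17490.5, 16286 and 18482 CPM in defenders, so the groups overlapped, and its log2 fold change changed sign without forager library 2. Obp2 stood at 15096, 20509 and 15028 CPM against 14088, 14194 and 15496 CPM. For both carriers the highest value was that of forager library 2.

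Chemosensory proteins, small soluble proteins of the lymph and of other tissues, gave 2 genes that fell among 5 tested, where 1.11% of all genes fell. CSP3 stood at 7877, 6944 and 8138 CPM in foragers and at 4942, 5556 and 4926 CPM in defenders. Every forager library was above every defender library, and the log2 fold change was -0.57 ± 0.17 (SE), with an adjusted p of 0.0766 in edgeR and 0.0458 in the paired fit. CSP6 stood lower, at 44.0, 23.1 and 31.4 CPM against 17.9, 13.7 and 10.9 CPM, again without overlap. Its log2 fold change of -1.21 ± 0.24 (SE) had an adjusted p of 0.0544 in edgeR and 0.027 in the paired fit. Without single libraries the paired adjusted p ran from 0.0488 to 0.24 for CSP3 and from 0.0462 to 0.173 for CSP6, each under 0.05 in 1 of 6 fits. CSP1, the most abundant of the 5, overlapped between the groups, at 8286, 12730.2 and 13867 CPM against 8502, 9174 and 11276 CPM.

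**Figure D2:**
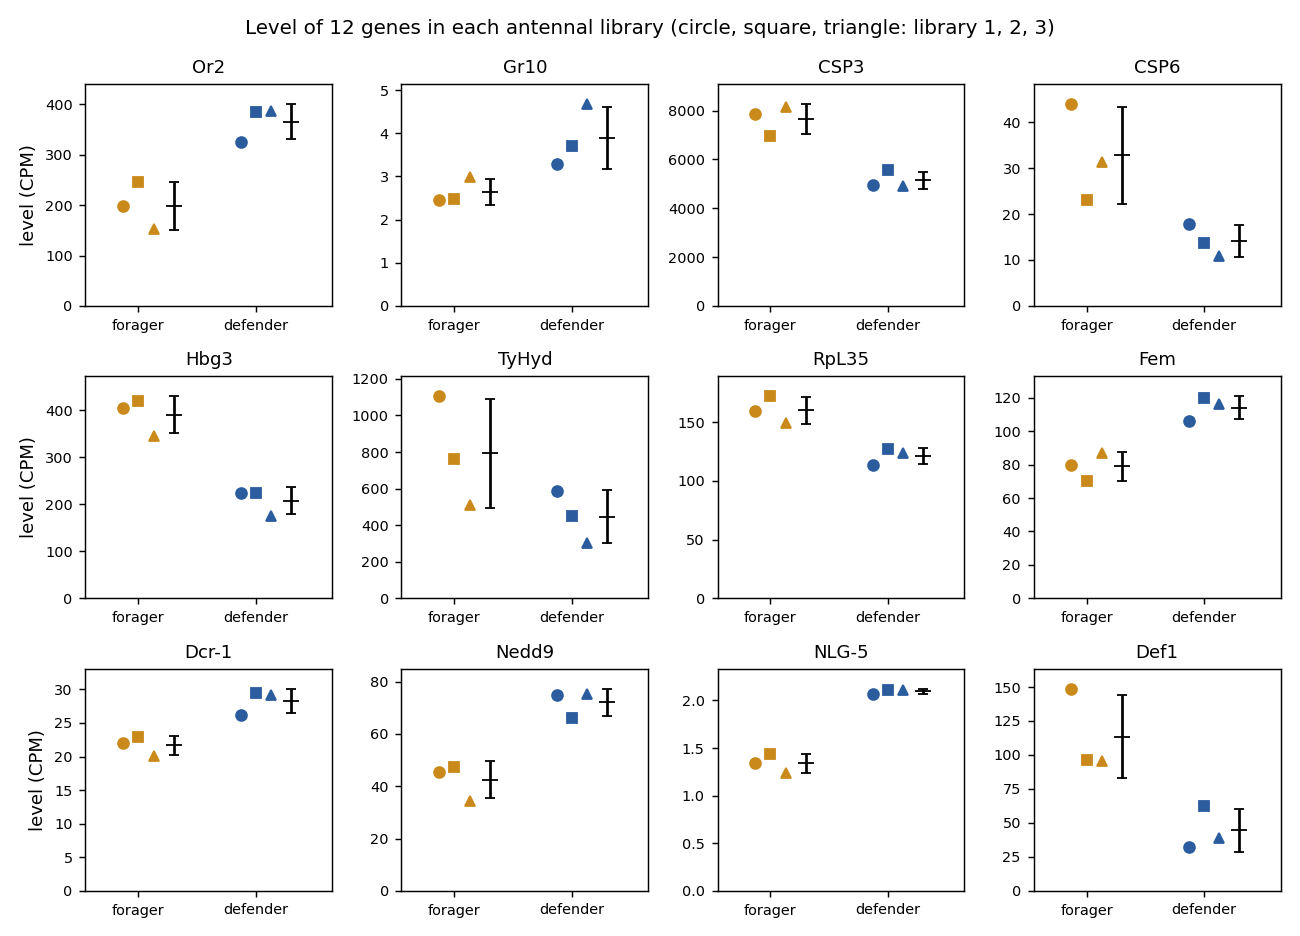
The level in CPM (y axis, from 0) of 12 genes in the 3 forager and 3 defender libraries; circles, squares and triangles are libraries 1, 2 and 3, and the black bar beside them is the mean ± SD (n = 3). Or2 (152 to 246 CPM against 325 to 388 CPM) and Hbg3 (345 to 420 CPM against 174 to 224 CPM) show groups that do not overlap, while TyHyd overlaps and falls within each pair of same-numbered libraries.

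Of genes linked to food and nursing, Hbg3 fell. Hbg3 encodes an alpha-glucosidase, an enzyme that splits sucrose as nectar is turned into honey, known from the hypopharyngeal gland of the head. It stood at 405, 419.7 and 345 CPM in foragers and at 224, 224 and 174 CPM in defenders. The groups were far apart, at -0.91 ± 0.15 (SE, log2), with an adjusted p of 0.0544 in edgeR and 0.0256 in the paired fit. Hbg3 kept its paired call in 2 of 6 fits that left out a library, with adjusted p from 0.0405 to 0.146. Nurses averaged 111 CPM and newly emerged workers 21.8 CPM of Hbg3. The royal jelly proteins, the other main products of that gland, stood the other way. Of 9 genes, 8 had a log2 fold change above 0 under TMM and upper-quartile factors, with a median of 0.98 under TMM. Of all 11271 genes, 5322 were above 0 under TMM. However, none reached an unadjusted p under 0.05 and 7 overlapped between the groups. The other 2 were higher without overlap, as were 17.2% of all genes. Mrjp9, the most abundant of the 9, stood at 376, 507 and 346 CPM in foragers and at 384, 554 and 408 CPM in defenders. Its groups overlapped (adjusted p 0.641 in edgeR). Mrjp1, the main royal jelly protein, stood at 6.08, 0.86 and 41.7 CPM in foragers and at 27.3, 17.7 and 50.4 CPM in defenders. Forager library 3 was above defender libraries 1 and 2. Mrjp7 stood at 11.5, 8.74 and 12.6 CPM against 16.5, 15.4 and 16.4 CPM, and Mrjp4 at 0.209, 0.18 and 0.537 CPM against 0.684, 0.549 and 1.02 CPM; these are the 2 whose groups did not overlap (adjusted p 0.327 and 0.287 in edgeR). The summed level of 11 markers of the gland, Hbg3 among them, was 939.6 to 1134 CPM in foragers and 813 to 1006 CPM in defenders, and its part in these differences was not tested.

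Vitellogenin (Vg), the yolk protein of the fat body that falls as workers turn to foraging, stood at 11.8, 11.1 and 9.78 CPM in foragers and at 26.6, 13.3 and 17.9 CPM in defenders. The defenders were higher in every library, by 0.82 ± 0.45 (SE, log2), with an adjusted p of 0.29 in edgeR. The hexamerin gene Hex70a, a storage protein, stood at 3.23, 1.09 and 0.639 CPM against 10.9, 2.49 and 2.72 CPM and overlapped. The 4 storage and yolk genes tested, which also served as markers of fat body, summed to 12.2 to 18.9 CPM in foragers and 18.3 to 42.8 CPM in defenders. Their part in the difference of Vg was not tested.

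Fem, Dcr-1 and Nedd9 were 3 of the 7 genes with a symbol that rose, and none of them is a sensory gene. Fem, the feminizer of the bee sex-determination pathway, stood at 79.7, 70.0 and 86.9 CPM in foragers and at 106, 119.6 and 116 CPM in defenders, a log2 fold change of 0.53 ± 0.11 (SE) with an adjusted p of 0.0544 in edgeR and 0.0312 in the paired fit. Dcr-1 encodes the Dicer enzyme that cuts microRNA precursors. It stood at 22.0, 22.9 and 20.1 CPM against 26.2, 29.4 and 29.2 CPM (0.38 ± 0.11, SE), with an adjusted p of 0.0715 in edgeR and 0.0496 in the paired fit. Nedd9, which in vertebrates encodes a scaffold of focal adhesions, stood at 45.6, 47.4 and 34.4 CPM against 74.7, 66.2 and 75.4 CPM (0.76 ± 0.21, SE), with an adjusted p of 0.0665 in edgeR and 0.0287 in the paired fit. In all 3 genes the lowest defender library was above the highest forager library. Without single libraries the paired adjusted p ran from 0.0478 to 0.196 for Fem, from 0.056 to 0.273 for Dcr-1 and from 0.0488 to 0.172 for Nedd9.

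The other genes with a symbol that rose were Or2, NLG-5, Ancr-1 and Mir6037. NLG-5 encodes a neuroligin, a postsynaptic adhesion protein, and stood at 1.35, 1.44 and 1.24 CPM in foragers and 2.07, 2.11 and 2.11 CPM in defenders (adjusted p 0.0665 in edgeR and 0.0381 in the paired fit). Ancr-1, a non-coding RNA described in the bee nervous system, stood at 2115, 1329.9 and 1846 CPM against 2601, 2376 and 2546 CPM (0.0747 in edgeR and 0.0498 in the paired fit, both adjusted p). Mir6037, a microRNA gene, stood at 10.7, 12 and 9.19 CPM against 12.9, 14.8 and 14 CPM (adjusted p 0.106 in edgeR and 0.047 in the paired fit), and whether its counts came from a precursor or from an overlapping transcript cannot be told apart. Beside Hbg3, CSP3 and CSP6, the genes with a symbol that fell were TyHyd, RpL35 and Rnft2. Rnft2, named for a RING finger and transmembrane domain, stood at 21.4, 23.1 and 21.5 CPM in foragers and at 17.5, 18.5 and 16.8 CPM in defenders (adjusted p 0.0576 in edgeR and 0.0489 in the paired fit). NLG-5, Ancr-1 and Rnft2 lost their paired call in each of the 6 fits that left out a library, with adjusted p from 0.0594, 0.0693 and 0.0697 upwards.

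TyHyd, tyrosine hydroxylase, makes the dopamine precursor DOPA for neurons and for the tanning of cuticle. It stood at 1105, 760.5 and 512 CPM in foragers and at 587, 452 and 301 CPM in defenders. The groups overlapped, since forager library 3 was below defender library 1, yet the defender was lower within each of the 3 same-numbered pairs, and the adjusted p was 0.111 in edgeR and 0.0473 in the paired fit, and from 0.0583 to 0.24 there without single libraries. Among 12 genes of biogenic amine synthesis, transport and reception, TyHyd and the octopamine receptor gene Oa1 were lower at an unadjusted p under 0.05 and none was higher, where 10.4% and 13.6% of all genes were. Oa1 stood at 44.6, 44.1 and 40.5 CPM in foragers and at 33.0, 41.1 and 29.9 CPM in defenders, with an adjusted p of 0.113 in edgeR. The serotonin receptor gene 5-ht7 stood the other way without overlap, at 1.3, 2.05 and 1.18 CPM against 2.5, 2.93 and 2.39 CPM (adjusted p 0.219 in edgeR). Where 4.81% of all genes rose and 1.11% fell, 1 of 10 markers of neurons and synapses rose (NLG-5) and none fell. Their summed level was 3309 to 3796 CPM in foragers and 3285 to 3664 CPM in defenders.

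The antimicrobial peptides Def1 and Apid1, effectors of the humoral immune response, showed wide differences that passed neither the 12-library fit nor the paired fit. Def1 (defensin) stood at 149, 96.3 and 95.8 CPM in foragers and at 32.2, 62.1 and 39.1 CPM in defenders. All defender libraries were lower, by -1.35 ± 0.73 on the log2 scale (SE), but the adjusted p was 0.283 in edgeR. Apid1 (apidaecin) stood at 109, 118 and 85.6 CPM against 70.1, 61.1 and 71.2 CPM, with an adjusted p of 0.432 in edgeR. With the 6 libraries fitted alone both passed in edgeR, at an adjusted p of 0.0304 for Def1 and 0.0295 for Apid1, and in DESeq2 neither did (0.23 and 0.483). Over the 6 immune genes tested, 5 had a log2 fold change below 0, as did 5949 of all 11271 genes. With upper-quartile factors, which moved the median of all genes to -0.12, all 6 were below 0. None of the 6 was at an unadjusted p under 0.05 in the 12-library fit.

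All 7 genes of cytosolic ribosomal proteins with a symbol were lower at an unadjusted p under 0.05, where 10.4% of all genes were. The median of their log2 fold changes was -0.38. All 7 were also below 0 with upper-quartile factors, which shifted the median of all genes by -0.10 (log2) and so took them further down. RpL35, of the large subunit, fell: it stood at 160.0, 172 and 149 CPM in foragers and at 114, 127 and 124 CPM in defenders (-0.40 ± 0.10, SE), with an adjusted p of 0.0625 in edgeR and 0.04 in the paired fit, and from 0.0478 to 0.196 there without single libraries. RpL32, of the large subunit, stood at 122, 133 and 105 CPM against 87.2, 95 and 94.1 CPM, without overlap (adjusted p 0.0749 in edgeR and 0.0721 in the paired fit). Of the 7, 5 were lower without overlap between the groups, where 14.8% of all genes were. The 7 genes of oxidative phosphorylation, which carry electrons and make ATP in mitochondria, had log2 fold changes from -0.56 to -0.01, and 3 of them (Ndufb2, Cox6c and ATP5G2) were lower at an unadjusted p under 0.05. Ndufb2, a subunit of complex I, stood at 39.7, 46.6 and 34.1 CPM in foragers and at 24.0, 28.2 and 29.2 CPM in defenders (adjusted p 0.0781 in edgeR and 0.0619 in the paired fit). ATP5G2, of the membrane ring of ATP synthase, stood at 603, 709.5 and 554 CPM against 494, 495 and 496 CPM (adjusted p 0.111 in edgeR). Cox6c, of cytochrome c oxidase, stood at 58.5, 62.2 and 45.5 CPM against 39.4, 39.9 and 45 CPM (adjusted p 0.149 in edgeR). In all 3 genes every defender library was below every forager library.

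Gene length moved with these differences. All 7 ribosomal protein genes, and 4 of the 7 of oxidative phosphorylation, were in the shortest of 5 equal classes of protein-coding genes, 251 to 1943 bases from start to end in the NCBI gene list. In that class, 2.39% of 1925 genes were higher and 22.5% lower at an unadjusted p under 0.05, and the median log2 fold change was -0.15. In the 4th class, 5501 to 13291 bases, 27.6% of 1922 genes were higher and 4.79% lower, with a median of 0.12. In the longest class, 13299 to 869734 bases, 15.5% were higher and 7.39% lower, with a median of 0.03, so the shares did not move one way over all classes. The genes of the shortest class stood higher relative to those of the 4th class in every forager library (by 0.14, 0.08 and 0.21 on the log2 scale) and lower in every defender library (by -0.14, -0.16 and -0.16). Of 1540 long non-coding RNA genes, 12% were lower, near the 10.4% of all genes, and 3.18% were higher, against 13.6% of all genes. Of 9 ribosomal RNA genes tested, 6 were lower and none higher, and 4 fell in the paired fit, where 1.11% of all genes fell. Of those 4, LOC113219378 stood highest, at 1.08, 9.64 and 0.703 CPM in foragers and 0.254, 0.377 and 0.399 CPM in defenders. The others averaged under 1 CPM in both groups. Forager library 2 was the highest for LOC113219378 and LOC113219340, but not for the rest of the 4. The part of gene length, and of the RNA quality it can follow, in any result here was not tested.

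**Figure D3:**
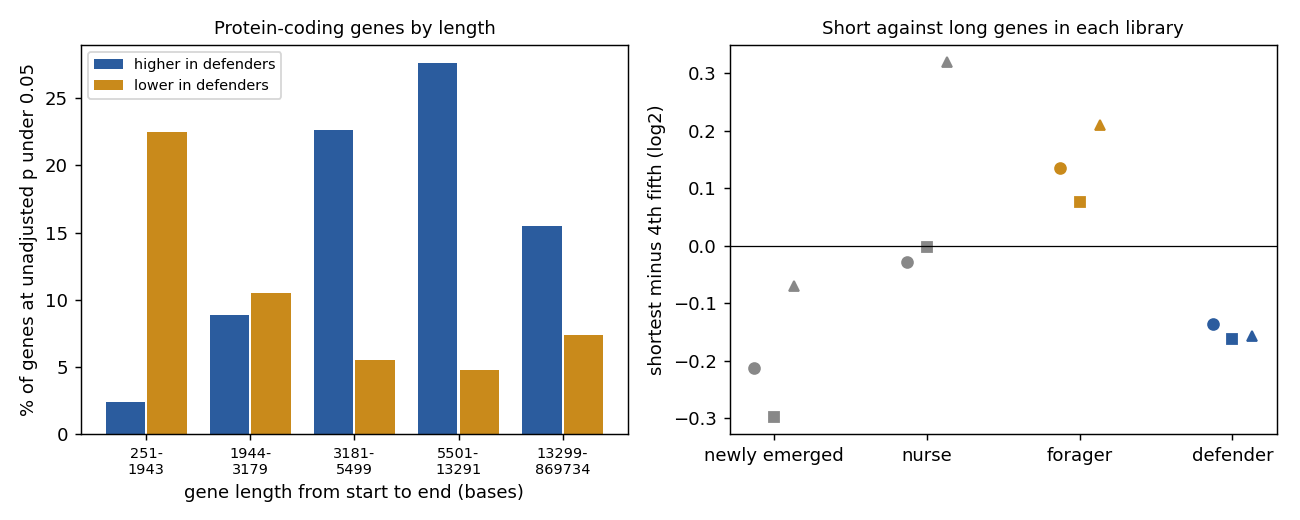
Left, the share of protein-coding genes at an unadjusted p under 0.05 (y axis, in percent) in 5 classes of gene length (x axis, bases), higher or lower in defenders. Right, for each of the 12 libraries, the median log2 deviation of the shortest class minus that of the 4th class, with deviations taken from the mean of the 6 forager and defender libraries; the foragers lie above 0 (0.08 to 0.21) and the defenders below (-0.16 to -0.14).

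The remaining lists gave few differences, and their counts stand against the same 13.6% of all genes higher and 10.4% lower at an unadjusted p under 0.05. In the juvenile hormone and ecdysone list, 10 genes, only the ecdysone receptor gene Ecr was at an unadjusted p under 0.05, at 479.8, 498 and 489 CPM in foragers and 441, 399 and 427 CPM in defenders (adjusted p 0.202 in edgeR). Kr-h1, the juvenile hormone response factor, stood at 53.7, 35.7 and 35.7 CPM against 35.4, 47.4 and 40.4 CPM, and Per, of the circadian clock, at 75, 61.2 and 85.4 CPM against 51.7, 84.9 and 60.9 CPM; both overlapped. Of 25 cuticle protein genes, 2 were lower and none higher at an unadjusted p under 0.05, both under 1 CPM. Of 6 cuticle tanning genes TyHyd was lower. Of 8 ion channel genes 2 were lower, among them Cac, a presynaptic calcium channel, at 242, 249.7 and 247 CPM against 232, 219 and 209.6 CPM. None of 7 cytochrome P450 genes, 3 glutathione S-transferase genes, 4 chaperone genes, 6 neuropeptide or receptor genes, or 7 muscle, 4 photoreceptor and 1 glial marker genes was at an unadjusted p under 0.05. CYP6AQ1, the most abundant P450 gene, stood at 12258, 16505 and 13194 CPM in foragers and at 12377, 13972 and 11789 CPM in defenders. Hsc70-4, the most abundant chaperone gene, stood at 6735, 10053 and 8415 CPM against 8748, 8283 and 8588 CPM. Mblk-1, the most abundant gene of the hormone list and known from mushroom body neurons, stood at 10632, 7182 and 10815 CPM against 11059, 9058 and 9856 CPM. These 3 genes overlapped between the groups. Para, the voltage-gated sodium channel, stood at 1403, 1267 and 1426 CPM against 1279, 1231 and 1209 CPM. The highest defender value of Para lay just above the lowest forager value. Muscle markers summed to 1117 to 1451 CPM in foragers and 1285 to 1722 CPM in defenders. Of 3 genes of glycolysis and trehalose use, Gpdh, which links glycolysis to lipid synthesis, was higher, at 114, 123 and 123 CPM against 144, 143 and 153 CPM. FAR1, a fatty acyl reductase gene, stood at 34.9, 30.9 and 28.6 CPM against 30.5, 25.2 and 22.4 CPM, with overlap (adjusted p 0.183 in edgeR and 0.0872 in the paired fit). PPO, prophenoloxidase of hemocytes, stood at 9.99, 9.65 and 9.25 CPM against 10.4, 11.5 and 12.3 CPM (adjusted p 0.413 in edgeR). Kakusei, an early non-coding RNA of active bee neurons, stood at 0.997, 1.79 and 0.806 CPM against 1.15, 0.631 and 0.816 CPM, with overlap.

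**Figure D4:**
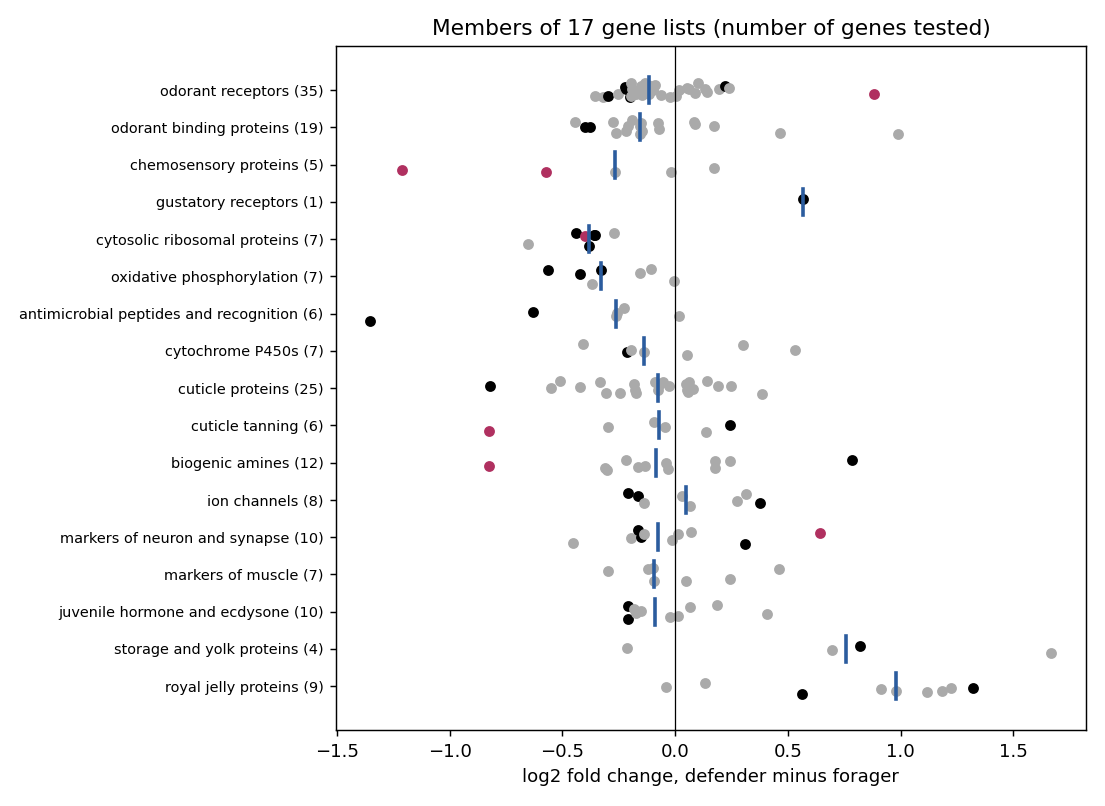
Each dot is the log2 fold change (x axis, defender minus forager) of a member of 1 of 17 gene lists (y axis, number tested in brackets), and the blue bar is the median of the list. Red dots passed in the paired fit, black dots are genes whose libraries do not overlap, and grey dots overlap; all 7 ribosomal protein genes lie below 0 and 8 of 9 royal jelly genes above.

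Most of the genes called in the paired fit, 654 of 667, carry only a LOC identifier, as do 10802 of the 11271 genes tested. The gene list used here pairs such identifiers with no product name. The median size of the difference over all 667 called genes was 0.63 on the log2 scale. At least 2-fold differences were found for 61 higher and 21 lower genes. The 5 smallest unadjusted p among higher genes were those of LOC552345, LOC409695, LOC412262, LOC410037 and LOC100577638, with an adjusted p of 0.0544 in edgeR and 0.0256 in the paired fit for each. LOC552345 stood at 8.39, 10.6 and 8.21 CPM in foragers and 21.2, 23.8 and 21.7 CPM in defenders, a log2 fold change of 1.29 ± 0.20 (SE). LOC412262 stood at 16.3, 12.9 and 17.6 CPM against 28.3, 28.1 and 28.6 CPM. Defender libraries varied little in both genes, and no forager library came near them. LOC409695 stood at 72.4, 64.7 and 62.1 CPM against 96.8, 124 and 107 CPM, and LOC410037 at 85.3, 80.6 and 93.4 CPM against 147, 123 and 127 CPM. LOC100577638 had the smallest difference of the 5, 0.46 ± 0.07 (SE, log2), at 74.9, 69.6 and 71.8 CPM against 102, 97.6 and 97.3 CPM.

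Among genes lower in defenders the 5 smallest unadjusted p were those of Hbg3, LOC551046, LOC551841, LOC409928 and LOC552206. LOC409928 stood at 135, 127 and 133 CPM in foragers and at 96.3, 93.8 and 93.8 CPM in defenders, a log2 fold change of -0.48 ± 0.09 (SE). LOC551841 stood at 23.2, 24.2 and 23.8 CPM against 15.1, 16.5 and 16.8 CPM, and LOC552206 at 123, 150.0 and 129.6 CPM against 98.8, 99 and 90.6 CPM. LOC551046, a gene of low level, stood at 1.98, 1.77 and 2.08 CPM against 0.976, 1.12 and 0.94 CPM. All 4 separated the groups, and each had an adjusted p of 0.0544 in edgeR and 0.0256 in the paired fit. The largest log2 fold changes among higher protein-coding genes that passed were those of LOC724115 and LOC410675. LOC410675 stood at 43.7, 52.4 and 30.2 CPM in foragers and at 137, 134 and 131 CPM in defenders, 1.67 ± 0.45 (SE, log2), with an adjusted p of 0.066 in edgeR and 0.0302 in the paired fit. LOC724115 stood at 5.87, 7.85 and 3.72 CPM against 16.1, 21.0 and 19.1 CPM. Neither gene overlapped between the groups. The largest fall of a protein-coding gene was that of LOC100578811, at 0.439, 0.5 and 0.831 CPM in foragers and 0.165, 0.0328 and 0.0475 CPM in defenders (adjusted p 0.0544 in edgeR and 0.028 in the paired fit).

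Nurses, which work inside the nest, served as a reference outside the contrast. Of the 2705 genes at an unadjusted p under 0.05, the nurse mean was nearer to the defenders in 32.5% and between both groups in 59.8%. Over all genes tested it was nearer to the defenders in 44.1% and between both in 33.9%. Choosing genes for a difference between the groups by itself widens the gap in which the nurse mean can lie. Of genes higher in defenders, 23.7% had nurses nearer to the defenders, and of genes lower in defenders, 43.9%. These shares rest on nurse libraries that vary among themselves in gene length as well (shortest against 4th class at -0.03, 0.00 and 0.32, log2).

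Splicing was described by inclusion levels, the fraction of transcripts that hold an exon, an intron or the longer form, as the authors deposited them. For a pair of mutually exclusive exons, the sources used here do not say which exon the level counts. A higher or lower level of such a pair therefore names no exon. The tables hold 491 events in 332 genes, among them 288 skipped exons and 90 pairs of mutually exclusive exons. The number of reads behind a level is unknown. How these events were chosen for deposit is not stated either. The shares and adjusted p below therefore hold for the 491 events only, not for all splicing in the antenna. Of the 491 events, 1 passed a BH adjusted p of 0.05 in limma (0.204%), 61 were at an unadjusted p under 0.05 (12.4%), and 82 did not overlap between the groups (16.7%), 38 higher (7.74%) and 44 lower (8.96%) in defenders. The median absolute difference of 0.057 was about as large as the median SD within foragers (0.069) or defenders (0.059).

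The event that passed is a pair of mutually exclusive exons of LOC411046. The first exon spans bases 4861941 to 4862024 and the second 4875039 to 4875071 in the file, which names neither chromosome nor build. Its level was 0.902, 0.847 and 0.941 in foragers and 0.634, 0.651 and 0.675 in defenders, a difference of -0.24 ± 0.04 (SE) with an adjusted p of 0.0416 in limma. Nurses averaged 0.873 and newly emerged workers 0.939, so the defender libraries were the low ones. With the library number in the fit the adjusted p was 0.0509, and without single libraries it ran from 0.0544 to 0.286, so each of the 6 omissions ended the call. The count level of LOC411046 differed by -0.10 (log2), with an adjusted p of 0.724 in edgeR.

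The paired fit called instead a skipped exon of LOC409821, at bases 15716997 to 15717053. Its level was 0.515, 1 and 0.56 in foragers and 0.137, 0.476 and 0.066 in defenders. Library 2 was high in both groups and the groups did not overlap, with an adjusted p of 0.283 without the library number and 0.00952 with it. Same-numbered libraries hardly deviated together in the inclusion levels of all events, with correlations of 0.116, 0.02 and 0.079.

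Over the 3 events per type with the largest non-overlapping differences, 15 in all, 11 were lower in defenders, and none of the other 13 passed in either fit of all libraries. At alternative 3′ splice sites none of the 43 events was higher without overlap and 6 were lower, where 7.74% and 8.96% of all 491 events were. A retained intron of LOC113218978 had levels of 0.739, 0.765 and 0.6 in foragers and 0.4, 0.167 and 0.143 in defenders (adjusted p 0.182). A skipped exon of LOC725699 had levels of 0.6, 1 and 0.733 against 0.4, 0.333 and 0.429 (adjusted p 0.198). An alternative 5′ splice site of LOC551156 was higher, at 0.412, 0.384 and 0.412 against 0.755, 0.532 and 0.772 (adjusted p 0.18), and passed without defender library 2. All 3 events separate the groups without overlap. Another 5′ splice site, of LOC409470, was lower, at 0.41, 0.314 and 0.593 against 0.214, 0.163 and 0.193 (adjusted p 0.228), and a pair of mutually exclusive exons of LOC410211 was higher, at 0.608, 0.444 and 0.615 against 0.903, 0.765 and 0.725 (adjusted p 0.198). A skipped exon of LOC551731 had levels of 0.61, 0.587 and 1 in foragers and 0.229, 0.524 and 0.309 in defenders (adjusted p 0.364), and a retained intron of LOC410363 had levels of 0.49, 0.495 and 0.429 against 0.786, 0.611 and 0.613 (adjusted p 0.299). The counts of these genes did not pass in edgeR in either fit.

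**Figure D5:**
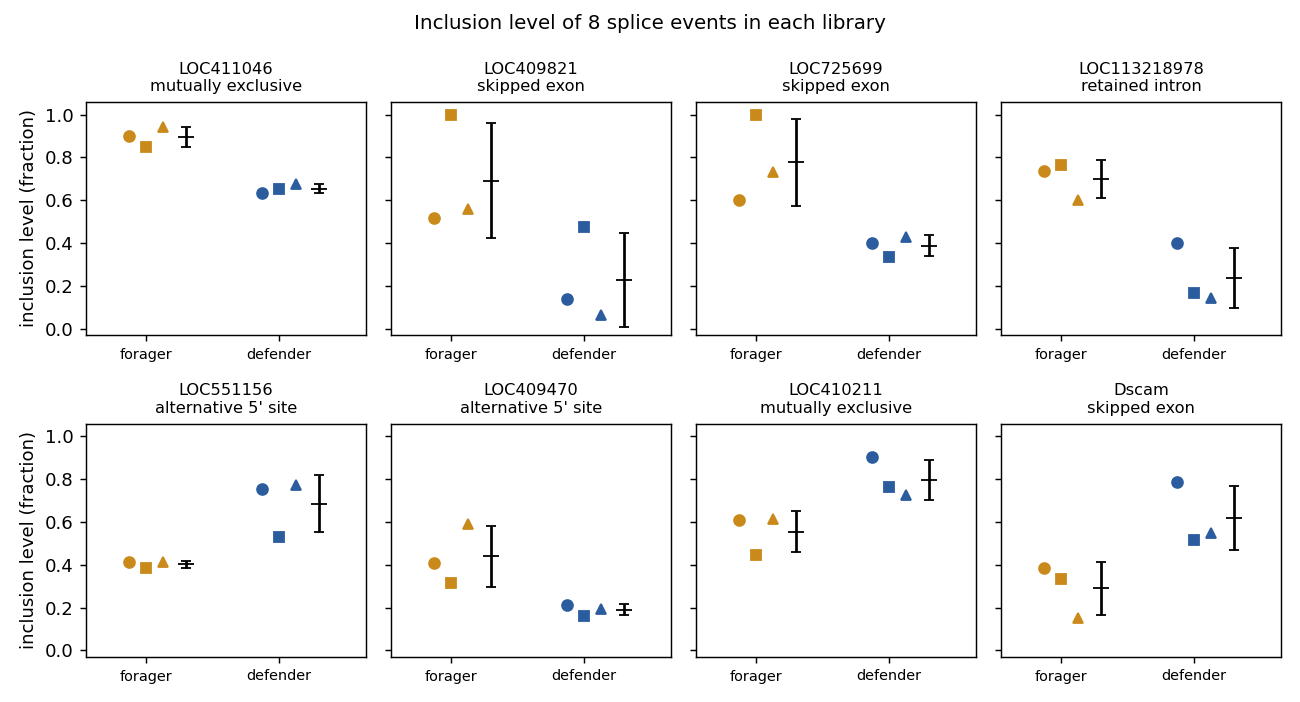
Inclusion level (y axis, fraction from 0 to 1) of 8 splice events in the 3 forager and 3 defender libraries; circles, squares and triangles are libraries 1, 2 and 3, and the black bar is the mean ± SD (n = 3). LOC411046 falls from 0.847 to 0.941 in foragers to 0.634 to 0.675 in defenders, with little spread, while LOC409821 varies widely within both groups.

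Dscam, the adhesion molecule whose variable exons give neurons and immune cells many isoforms, held 20 of the events, which partly share exons and reads. Of these, 17 had a higher level in defenders, but these are not 17 separate results. Several mutually exclusive pairs share the exon at bases 11844793 to 11845080, and several skipped exons lie within the same span, 11868437 to 11877343. The same count was not made over all 491 events, of which 30 were higher and 31 lower at an unadjusted p under 0.05. Its skipped exon with the smallest p had levels of 0.385, 0.333 and 0.152 in foragers and 0.789, 0.514 and 0.55 in defenders, a difference of 0.33 ± 0.11 (SE) with an adjusted p of 0.283 in limma and 0.173 in the paired fit. A pair of mutually exclusive exons of Dscam had levels of 0.2, 0 and 0.238 against 0.447, 0.393 and 0.409 (adjusted p 0.38). The Dscam gene itself stood at 176, 127 and 165 CPM in foragers and at 199, 178 and 202 CPM in defenders, without overlap, with an adjusted p of 0.268 in edgeR. The exon events of the receptors Or58 and Or170, of Per, of the troponin genes TpnI and TpnT and of Syx1A, a synaptic fusion protein, overlapped between the groups.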

How the data were processed

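The authors deposited raw counts per gene, and inclusion levels, a fraction per splice event and library; the sources used here name no aligner, counter, event caller, build or strand setting for them, and the label fields on processing and protocols describe a human chromatin assay and were not used. Levels are CPM with TMM sizes. Counts were tested with edgeR 4.0.16 (R 4.3.3; filterByExpr, glmQLFit with robust = TRUE, 12 libraries, 4 group means, 8 residual degrees of freedom, two-sided, BH over 11271 genes), and inclusion levels with limma 3.58.1 over 491 events. SE is the absolute log2 fold change over the square root of F. DESeq2 was 1.42.0. Of 12319 gene names, 12167 matched the NCBI list for Amel_HAv3.1, used for names, biotype and length. Titles gave groups and numbers. The titles' second replicate number differs for 1 forager and 1 nurse library, and no label says what a number marks. The pairing rests on the correlations of defender with forager deviations (0.222 to 0.423 for equal numbers, -0.26 to -0.007 otherwise), and the paired fit applies the number to all 12 libraries. Members and lists were chosen with earlier results of these data known. Named by rule were the 5 smallest p per direction, the most abundant member of each list, 12 further genes fixed by name, and the 3 largest non-overlapping differences per event type. On simulated counts the edgeR step was tested.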

Additional observations from a re-analysis of the deposited data

How the results depend on the processing

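The count of called genes was 0 in edgeR with upper-quartile or RLE factors, without a filter, with at least 1 CPM in 3 libraries, with robust = FALSE, without ribosomal RNA genes and with protein-coding genes only. It was 0 to 1 when single libraries were left out, 1306 (806 higher, 500 lower) with DESeq2, 876 (711 and 165) with 6 libraries, 667 (542 and 125) with the replicate block, and 1138 (769 and 369) at an adjusted p under 0.10. Unadjusted counts under upper-quartile factors were 952 higher and 2319 lower. The block counts ran from 0 to 325 (0 to 278 higher, 0 to 47 lower) without single libraries, and were 342 higher and 381 lower with upper-quartile factors; the causes were not tested. The settings with robust = FALSE, without ribosomal RNA, with protein-coding genes and at 0.10, and those of the block counts, were chosen after seeing the data. The nurse share was 31.9% with upper-quartile factors. Splice calls were 0 on the logit scale and with 6 libraries, 1 with the replicate block (another event), and 0 to 1 without single libraries. The replicate block called 21 of the 69 named genes and turned the sign of Kr-h1 (0.006) and CSP4 (0.001); it changed no other call. With upper-quartile factors the log2 fold change turned sign for Mblk-1 (-0.033), TpnCIIIa (-0.054), CPR14 (-0.044), B-gluc1 (-0.084), Tret1 (-0.081), Hsc70-4 (-0.081) and Uvop (-0.081). Without single libraries it took both signs for Obp1 (-0.241 to 0.016), GstD1 (-0.292 to 0.063), Melt (-0.622 to 0.126), Mrjp9 (-0.064 to 0.315), Mblk-1 (-0.102 to 0.166), TpnCIIIa (-0.054 to 0.115), CPR14 (-0.106 to 0.195), Eaat-2 (-0.104 to 0.003), B-gluc1 (-0.022 to 0.085), Tret1 (-0.099 to 0.095), Hsc70-4 (-0.112 to 0.173), Uvop (-0.06 to 0.096), Kr-h1 (-0.156 to 0.202) and CSP4 (-0.2 to 0.161). With 3 libraries a group, an exact permutation test of 1 value cannot go below 0.10.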

Other observations

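The libraries of newly emerged workers did not enter the contrast, but they and the nurses entered the paired fit that chose the genes. The newly emerged libraries stood nearer to the defenders than to the foragers in many of the genes called there. This comparison was chosen after the data were seen. Choosing genes for a difference between the groups by itself widens the gap in which another mean can lie. Of the 542 genes that were higher in defenders, the newly emerged mean was nearer to the defender mean in 89.5%, and beyond it in 345; over all 11271 genes it was nearer in 61%. Of the 125 that were lower, it was nearer to the defenders in 73.6% and beyond them in 39. The nurse mean was nearer to the defenders in 10.3% of the higher and 28.8% of the lower genes, and in 44.1% of all genes. Of the 61 called genes at least 2-fold higher in defenders, 59 had the newly emerged mean and 0 the nurse mean nearer to the defenders. LOC410675 averaged 234 CPM in newly emerged workers and 46.4 CPM in nurses, beside 42.1 CPM in foragers and 134 CPM in defenders. Nedd9 averaged 81.2 and 42.1 CPM, and Or2 324 and 176 CPM, in newly emerged workers and nurses. The newly emerged libraries also had the shortest class of genes low against the 4th class (-0.21, -0.30 and -0.07, log2), as the defenders had, and the part of gene length in this was not tested.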
